A study of Bos taurus with 8 samples.

Results

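The genes described here are those of phospholipase C, protein kinase C and calcium signaling, measured in the bovine corpus luteum, in small luteal cells (SLC) and in its large luteal cells (LLC). They were chosen by name as the phosphoinositide phospholipases C (PLCB, PLCD, PLCE, PLCG, PLCH and PLCZ genes), the protein kinases C (PRKC) and D (PRKD), the diacylglycerol kinases (DGK) and RASGRP1 to RASGRP4. To these were added the IP3 and ryanodine receptors (ITPR, RYR), the calcium pumps (ATP2A, ATP2B, ATP2C), calmodulins, calmodulin kinases (CAMK, CAMKK), calcineurin (PPP3) and the NFATC factors. Each had to be the only gene symbol of a transcript cluster, which is the set of array probes that reports a gene. This gave 74 genes of 18087 symbols. No calmodulin gene was among them, since the calmodulin cluster found carries several symbols.

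Phospholipase C sits at the plasma membrane and is switched on by receptors. It splits the lipid PIP2 into IP3, which opens calcium channels of the endoplasmic reticulum, and diacylglycerol, which stays in the membrane and activates protein kinase C and other proteins that bind it. Calcium then acts through calmodulin on the calmodulin kinases and on the phosphatase calcineurin, which moves NFATC factors into the nucleus, while pumps return calcium to the stores or out of the cell. In the corpus luteum this pathway is known as the route of prostaglandin F2alpha, whose receptor PTGFR couples to Gq proteins and is abundant in large luteal cells.

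RNA of 4 SLC and 4 LLC samples was hybridised to Affymetrix Bovine Gene 1.0 ST arrays, with 1 array per sample. The cells came from mature, mid-cycle corpora lutea of lactating Holstein cows, whose cycles had been synchronized with the prostaglandin analogue cloprostenol in all groups. Cells were dispersed with collagenase, enriched on Percoll, stained with a Hoechst dye and separated by fluorescence-activated cell sorting, with no surface marker named for SLC or LLC. The labels call the arrays of a cell type biological replicates 1 to 4 and do not name the cow of each. Should any share an animal, the p-values measure only the spread between these samples. Both cell types were sorted from mixed luteal cells, so an SLC and an LLC sample may share a cow. The main fit does not pair them.

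All values are log2 signals, on which a difference of 1 is a 2-fold difference, and all differences are LLC minus SLC. The number of arrays limits their precision. Signals of different genes come from different probes and are not compared with each other. The cell type labels were checked on markers. Of 7 genes of LLC and the granulosa lineage, 6 were higher in LLC at an adjusted p under 0.05, OXT and PTGFR among them, and INHBA was not. Of 6 genes of SLC and the theca lineage, 2 were higher in SLC, INSL3 and NR2F2. LHCGR (difference -1.17, limma adjusted p = 0.0593), CYP17A1 (-0.045) and GLI1 (0.03) did not pass. PTCH1 did not pass either, with all LLC arrays above SLC (0.37). Markers of other cells were also present. All 12 macrophage markers measured, 9 of 9 fibroblast, 7 of 10 endothelial (3 without SLC replicate 2 or 4) and 4 of 9 pericyte and smooth muscle markers were higher in SLC. No lymphocyte marker (0 of 12) and no erythrocyte or platelet marker (0 of 7) passed in limma, also at an unadjusted p under 0.05 or without moderation. In sorted bulk samples, fewer cells of a type and less RNA per cell cannot be told apart. Normalized signals are also relative to the other RNA of a sample, and the study gives a larger diameter for LLC than for SLC. A smaller share through more RNA of the sorted cells themselves cannot be told apart from these either. Every value describes the whole sorted sample.

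RASGRP1, PRKCB and PRKD1 were higher in LLC by 17.5-fold, 7.50-fold and 2.67-fold. RASGRP3 and PLCD1 were higher in SLC by 2.38-fold and 2.08-fold. ITPR2, PLCB4, RYR1 and CAMK4 were higher in LLC by less than 2-fold, CAMK4 with a signal near background in both cell types. SLC had the higher signal for PLCG2, ATP2B4, ATP2C2, NFATC2 and PRKD2, also by less than 2-fold.

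At a limma adjusted p under 0.05, LLC exceeded SLC in 7 of 74 genes (9.46%) and SLC exceeded LLC in another 7 (9.46%). Over 1 cluster for each symbol, 11.1% were higher in LLC and 11.7% in SLC, so the share called was slightly below that of all genes. Over all 24415 clusters the shares were 9.64% and 10.2%. With a fold above 2 in addition, the filter of the study, LLC had the higher signal for 3 genes (4.05%) and SLC for 2 (2.70%), against 2.86% and 3.69% of all symbols, or 2.40% and 3.07% of clusters. The 4 arrays of LLC lay above all 4 of SLC for 9 genes, and the reverse held for 11, where such a separation was found in 12.6% and 12.9% of all symbols, or 11.2% and 11.3% of clusters. The median difference was -0.02 over the 74 genes and 0.01 over all symbols. The median size of the difference, in either direction, was 0.24 and 0.20. Without SLC replicate 2 the count higher in SLC was 4, and with a fold above 2 it was 1. That last count was also 1 without SLC replicate 3 or LLC replicate 1, and 5 without LLC replicate 4.

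Signals near background were judged from olfactory receptor genes, which are taken as silent here. The 95th percentile of their means was 2.26 in SLC and 2.34 in LLC. A total of 11 genes lay below it in both cell types: PLCB2, PLCH1, PLCZ1, RYR2, RYR3, CAMK2B, CAMK4, PPP3R2, PRKCQ, DGKG and DGKK. Another 5 lay below it in 1 cell type, ATP2B3 in SLC and ATP2B2, PRKCZ, DGKB and RASGRP2 in LLC. Of the 60 genes not past an adjusted p under 0.05, which is what not passing means throughout, 50 were above this limit. The interval of 14 of these 50 left out 0. In 45 of these 50 the 95% interval of the difference lay within 2-fold either way, and in 27 within 1.5-fold. Counting only genes above this limit in either cell type, LLC had the higher signal for 6 of 63 (9.52%) and SLC for 7 (11.1%), against 14.8% and 15.9% of 13040 symbols. With a fold above 2 the counts were 3 and 2, against 3.95% and 5.08%, and without overlap of arrays 8 and 11, against 16.2% and 17.3%. The interval reached past 2-fold for ITPR3, ATP2A1, CAMK2N1, PRKCH and DGKI, for which these arrays leave a 2-fold difference possible.

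**Figure D1:**
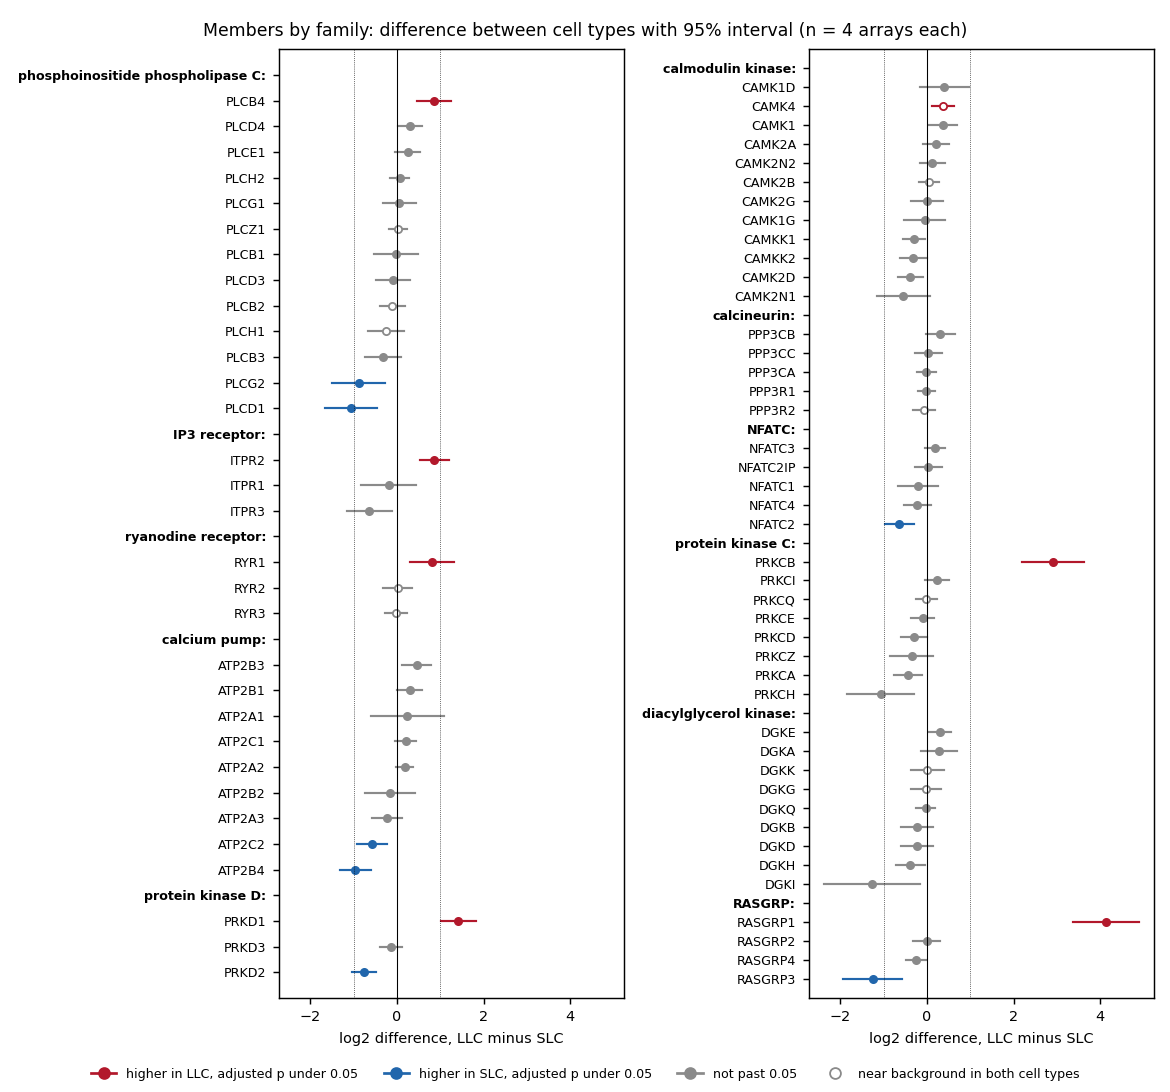
Log2 difference between LLC and SLC (x axis) for the 74 genes, by family (y axis), with the 95% interval of the limma fit; dotted lines mark 2-fold. RASGRP1 (4.13), PRKCB (2.91) and PRKD1 (1.42) lie to the right of the 2-fold line and most genes lie close to 0.

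Among the 13 phospholipases C, PLCB4 was higher in LLC, and PLCD1 and PLCG2 higher in SLC. PLCB enzymes are the ones that Gq proteins activate. PLCB4 gave 5.88, 6.19, 5.66 and 6.35 on the SLC arrays and 7.13, 6.95, 6.89 and 6.52 on the LLC arrays, in order of replicate. All LLC arrays lay above all SLC arrays, with LLC replicate 4 closest to SLC. The difference was 0.85 (SE 0.18, limma adjusted p = 0.00795).

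PLCB1, also a Gq target, gave 6.89, 7.59, 7.04 and 6.61 in SLC and 7.41, 7.23, 6.79 and 6.63 in LLC. Its arrays overlapped, with a difference of -0.02 and a 95% interval from -0.53 to 0.49. PLCB3 had means of 4.49 in SLC and 4.17 in LLC (adjusted p = 0.276), and PLCB2, known from blood cells, stood near background in both.

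PLCD1, an enzyme that calcium itself stimulates, gave 6.08, 6.02, 6.84 and 5.84 in SLC and 4.65, 4.96, 5.15 and 5.78 in LLC. The groups were separated only narrowly, by SLC replicate 4 at 5.84 and LLC replicate 4 at 5.78. The difference was -1.06 (SE 0.27, adjusted p = 0.0193), and the adjusted p was 0.0521 without LLC replicate 1 and 0.0529 without LLC replicate 2. Without SLC replicate 3 or LLC replicate 1 its fold was under 2. The adjusted p was 0.0787 with signals held at a common background limit and 0.0890 in an unmoderated test.

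PLCG2, which receptors of immune cells activate through tyrosine kinases, gave 5.24, 4.87, 5.32 and 4.53 in SLC and 3.85, 3.43, 4.52 and 4.63 in LLC. LLC replicate 4 lay above the lowest SLC array. The difference was -0.88 (SE 0.28, adjusted p = 0.0484), and the call was lost without any of SLC replicates 1, 2 and 3 or LLC replicates 1 and 2, with adjusted p of 0.0840 to 0.124. The PLCG2 call also ended with a replicate block (0.0515), quantile normalization (0.0572) or an unmoderated test (0.151). Signals held at the background limit of each cell type (0.0611) or at a common limit (0.144) ended it too. Its widely expressed relative PLCG1 had means of 5.37 in SLC and 5.43 in LLC. The remaining phospholipases were PLCD3 (3.59 in SLC and 3.49 in LLC), PLCD4 (2.94 and 3.25), PLCE1, which Ras proteins bind (4.41 and 4.66), and PLCH2 (2.41 and 2.48), with PLCH1 and the sperm enzyme PLCZ1 near background.

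RASGRP proteins carry a diacylglycerol-binding domain and switch on small GTPases of the Ras and Rap families. RASGRP1, best known from T cells, gave 5.08, 3.65, 4.19 and 4.59 in SLC and 8.90, 8.69, 8.80 and 7.63 in LLC. Every LLC array lay far above every SLC array, and LLC replicate 4 stood apart from the other LLC arrays. The means were 4.38 ± 0.61 (SD, n = 4) and 8.51 ± 0.59, a difference of 4.13 (SE 0.34, limma adjusted p = 9.69e-05).

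RASGRP3 went the other way, at 5.40, 6.20, 5.61 and 5.85 in SLC and 4.86, 4.49, 3.57 and 5.13 in LLC. The difference was -1.25 (SE 0.31, adjusted p = 0.0176). LLC replicate 3 was the lowest array, and without it the difference was -0.94. The adjusted p was 0.0529 without SLC replicate 2 and 0.0501 without SLC replicate 4, 0.0772 with signals held at a common background limit and 0.0874 in the unmoderated test. RASGRP2, with means of 2.27 in SLC and 2.26 in LLC, and RASGRP4, at 2.99 and 2.74 (adjusted p = 0.135), did not pass.

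Of 8 protein kinase C genes, PRKCB alone passed the test. The kinases fall into a class that needs both calcium and diacylglycerol (PRKCA and PRKCB here), a class that needs diacylglycerol but no calcium (PRKCD, PRKCE, PRKCH and PRKCQ) and an atypical class that needs neither (PRKCI and PRKCZ). PRKCB gave 4.30, 4.33, 3.10 and 4.47 in SLC and 7.46, 7.18, 6.79 and 6.40 in LLC. All LLC arrays were far above all SLC arrays, and SLC replicate 3 was low. The difference was 2.91 (SE 0.32, adjusted p = 0.000372).

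PRKCA, the closest relative of PRKCB in the list, averaged 4.56 ± 0.26 (SD, n = 4) over SLC and 4.12 ± 0.17 over LLC (difference -0.43, adjusted p = 0.0668, and 0.0248 without SLC replicate 3). With dim clusters removed its adjusted p was 0.0482. PRKCH gave 5.49, 5.82, 5.28 and 5.80 in SLC and 4.86, 5.01, 3.29 and 4.95 in LLC. The arrays did not overlap, but LLC replicate 3 stood far below the other LLC arrays. With it the difference was -1.07 (SE 0.35, adjusted p = 0.0562). Without it the difference was -0.66 (adjusted p = 0.0184), and without LLC replicate 4 it was -1.21 (adjusted p = 0.0458). With every array kept, PRKCH passed with a replicate block (adjusted p = 0.0171) or array weights (0.0429). It also passed with dim clusters removed (0.039) or adjustment over clusters with a symbol (0.0490). The other kinases had means of 3.55 in SLC and 3.25 in LLC for PRKCD, 4.58 and 4.48 for PRKCE, 4.50 and 4.73 for PRKCI, and 2.58 and 2.23 for PRKCZ, and PRKCQ was near background.

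The protein kinases D bind diacylglycerol, are phosphorylated by protein kinase C and act at the Golgi in the formation of secretory carriers. PRKD1 was higher in LLC and PRKD2 higher in SLC. PRKD1 gave 5.70, 5.45, 5.31 and 5.28 in SLC and 7.12, 6.63, 7.22 and 6.44 in LLC, a separation of all arrays and a difference of 1.42 (SE 0.18, adjusted p = 0.000868). PRKD2 gave 4.53, 4.83, 4.42 and 4.56 in SLC and 3.75, 3.86, 3.65 and 4.04 in LLC, also fully separated. Its difference was -0.76 (SE 0.12, adjusted p = 0.00253). PRKD3 gave 6.61, 6.80, 6.81 and 6.64 in SLC and 6.45, 6.42, 6.80 and 6.64 in LLC. These overlapped, with a 95% interval of the difference from -0.39 to 0.12.

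Diacylglycerol kinases turn diacylglycerol into phosphatidic acid and so end its signal. None of the 9 passed an adjusted p under 0.05 in limma or without moderation, while 3 had an unadjusted p under 0.05 (DGKE, DGKH and DGKI). DGKA gave 4.83, 4.66, 5.31 and 4.98 in SLC and 5.0, 5.49, 5.54 and 4.88 in LLC, which overlapped. DGKI had the largest difference of the family, -1.26, with arrays from 2.84 to 5.05 in SLC and from 1.72 to 3.28 in LLC, a spread that left the adjusted p at 0.107. The interval was from 0.06 to 0.55 for DGKE (adjusted p = 0.0822, and 0.0497 without LLC replicate 4) and from -0.72 to -0.05 for DGKH (adjusted p = 0.106). DGKD (4.89 in SLC, 4.66 in LLC), DGKQ (3.76 and 3.73) and DGKB (2.38 and 2.16) did not pass, and DGKG and DGKK were near background.

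**Figure D2:**
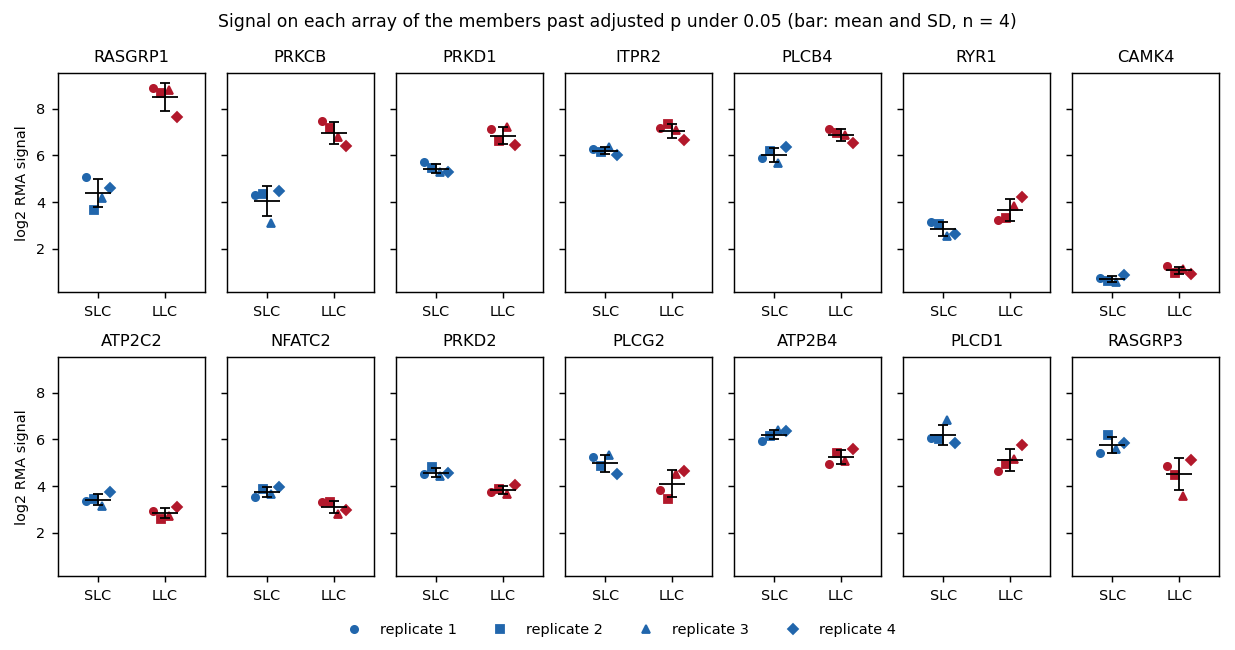
Log2 RMA signal (y axis) on each of the 8 arrays for the 14 genes past an adjusted p under 0.05, ordered by difference, with SLC in blue, LLC in red and bars for mean and SD (n = 4). RASGRP1 and PRKCB show the widest gaps, and PLCG2 is the gene in which an LLC array (replicate 4, 4.63) overlaps SLC.

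On the calcium side, ITPR2 and RYR1, which both release calcium from internal stores, were higher in LLC. ITPR2, an IP3 receptor, gave 6.27, 6.14, 6.36 and 6.01 in SLC and 7.16, 7.35, 7.08 and 6.65 in LLC. No arrays overlapped, with a difference of 0.86 (SE 0.15, adjusted p = 0.00375). A separate cluster for ITPR2 gave 0.67 (adjusted p = 0.00379).

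ITPR1 gave 7.37, 6.91, 6.94 and 7.23 in SLC and 6.26, 6.60, 7.06 and 7.77 in LLC. The LLC arrays spanned more than the SLC arrays, and the difference was -0.19 (adjusted p = 0.723). ITPR3 averaged 4.75 ± 0.44 (SD, n = 4) over SLC and 4.11 ± 0.34 over LLC (difference -0.64, adjusted p = 0.0836). Its adjusted p was 0.0242 without SLC replicate 3, 0.0477 without LLC replicate 2 and 0.0311 with a replicate block.

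RYR1, the ryanodine receptor of skeletal muscle, gave 3.16, 3.07, 2.56 and 2.62 in SLC and 3.24, 3.34, 3.84 and 4.22 in LLC, a narrow separation. The difference was 0.81 (SE 0.23, adjusted p = 0.0326). The call was lost without SLC replicate 3 or 4 or LLC replicate 3 or 4, with adjusted p of 0.0540 to 0.0941. It was also lost with a replicate block (0.0765), in an unmoderated test (0.115) and with signals held at a common background limit (0.106). RYR2 and RYR3 were near background.

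Of 9 calcium pumps, ATP2B4 and ATP2C2 were higher in SLC and none was higher in LLC. ATP2B pumps move calcium out of the cell. ATP2B4 gave 5.95, 6.14, 6.39 and 6.37 in SLC and 4.93, 5.42, 5.09 and 5.58 in LLC, without overlap. Its difference was -0.96 (SE 0.16, adjusted p = 0.00311). ATP2B1, the widely expressed pump of this type, averaged 6.87 ± 0.13 (SD, n = 4) over SLC and 7.16 ± 0.20 over LLC (adjusted p = 0.145).

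ATP2C2, a calcium and manganese pump of the secretory pathway, gave 3.38, 3.43, 3.17 and 3.73 in SLC and 2.95, 2.60, 2.73 and 3.12 in LLC. The difference was -0.58 (SE 0.15, adjusted p = 0.0233), and it was -0.59 to -0.48 (adjusted p of 0.0506 to 0.0660) when SLC replicate 1, 2 or 4 or LLC replicate 2 or 3 was left out. A common background limit (adjusted p = 0.0617) and the unmoderated test (0.0722) ended the call too. Its relative ATP2C1 had means of 7.16 in SLC and 7.36 in LLC.

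ATP2A2, the main pump that refills the endoplasmic reticulum in non-muscle cells, gave 7.14, 7.11, 7.26 and 7.24 in SLC and 7.31, 7.42, 7.36 and 7.36 in LLC. All LLC arrays lay above SLC, by a mean of 0.17 with a 95% interval from -0.02 to 0.37 (adjusted p = 0.222). ATP2A2 passed with signals held at the background limit of each cell type (adjusted p = 0.0118) or at a common limit (0.0408). ATP2A1 ranged from 2.94 to 3.77 in SLC and from 2.70 to 4.54 in LLC. ATP2A3 (3.18 in SLC, 2.96 in LLC), ATP2B2 (2.31 and 2.15) and ATP2B3 (2.05 and 2.50) were dim. ATP2B3 had an adjusted p of 0.0659, and of 0.0121 without LLC replicate 2.

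Of 12 calmodulin kinase genes and their inhibitors, CAMK4 was the gene that passed, and it did so below the background limit. It gave 0.77, 0.60, 0.58 and 0.86 in SLC and 1.27, 0.97, 1.15 and 0.92 in LLC (difference 0.38, SE 0.12, adjusted p = 0.0473). The call was lost without any SLC replicate or without LLC replicate 1, 2 or 3 (adjusted p of 0.0530 to 0.122), and with quantile normalization, median centring, a replicate block, array weights or the unmoderated test (0.0502 to 0.0874).

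CAMKK2, which activates CAMK1 and CAMK4, gave 6.44, 6.24, 6.51 and 6.19 in SLC and 5.95, 5.79, 6.01 and 6.37 in LLC. LLC replicate 4 lay among the SLC arrays. The difference was -0.32 (adjusted p = 0.157), and -0.43 (adjusted p = 0.0317) without LLC replicate 4. CAMK2D was likewise highest within LLC in replicate 4, though below all SLC arrays. It averaged 6.11 ± 0.08 (SD, n = 4) over SLC and 5.73 ± 0.24 over LLC (adjusted p = 0.0613, and 0.0256 without LLC replicate 4). CAMK2D also passed with dim clusters removed (0.0452), array weights (0.0395) or signals held at the background limit of each cell type (0.036).

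CAMK1 had means of 4.72 in SLC and 5.09 in LLC (adjusted p = 0.108, and 0.0268 without LLC replicate 1). CAMK2N1, an inhibitor of the CAMK2 kinases, had means of 4.65 and 4.11 (adjusted p = 0.213, 0.0480 without SLC replicate 3 and 0.0170 with a replicate block). CAMK2G was at 4.68 in both cell types. CAMKK1 (3.36 in SLC, 3.07 in LLC), CAMK1G (3.30 and 3.25), CAMK1D (2.75 and 3.15), CAMK2A (2.59 and 2.80) and the inhibitor CAMK2N2 (2.42 and 2.55) did not pass.

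In calcineurin no gene was called. None of its 5 genes passed in limma, also at an unadjusted p under 0.05 or without moderation. PPP3R1, its calcium-binding subunit, gave 6.44, 6.52, 6.50 and 6.34 in SLC and 6.42, 6.47, 6.44 and 6.43 in LLC. The 95% interval of this difference was from -0.21 to 0.19. The catalytic subunit PPP3CA had means of 6.16 in SLC and 6.15 in LLC (interval from -0.23 to 0.21) and PPP3CC of 5.55 and 5.58. PPP3CB had 5.55 ± 0.02 (SD, n = 4) and 5.86 ± 0.31, with LLC replicate 1 highest at 6.29 (adjusted p = 0.187).

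Of the NFATC factors that calcineurin controls, NFATC2 was higher in SLC. It gave 3.52, 3.86, 3.66 and 3.98 in SLC and 3.32, 3.33, 2.82 and 3.0 in LLC, without overlap (difference -0.64, SE 0.15, adjusted p = 0.0147, and 0.0544 in the unmoderated test). NFATC3 gave 6.19, 6.0, 6.11 and 6.01 in SLC and 6.34, 6.35, 6.04 and 6.32 in LLC, which overlapped through LLC replicate 3. NFATC1 (3.34 in SLC, 3.13 in LLC), NFATC4 (3.65 and 3.43) and NFATC2IP, which encodes a protein that binds NFATC2 (4.43 and 4.46), did not pass.

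The LLC arrays did not differ from SLC by equal amounts. LLC replicate 4 was the LLC array closest to the SLC mean in 12 of the 14 genes called (85.7%), and in 57.1% of all 4114 symbols called. For the 7 genes higher in LLC LLC replicate 4 lay 1.31 above the SLC mean on average, while its fellow LLC arrays lay 1.64 to 1.81 above it. For the 7 higher in SLC the average shift of LLC replicate 4 was -0.52, and that of its fellow LLC arrays -1.06 to -0.95.

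Cell type markers were set beside some of these genes, array by array. The mean of 7 LLC and granulosa markers ranged from 5.01 to 5.75 in SLC and from 8.02 to 8.83 in LLC. It was highest in replicate 1 and lowest in replicate 2 among SLC, and lowest in replicate 4 among LLC, and RASGRP1 had its highest and lowest SLC arrays and its lowest LLC array in the same samples. SLC replicates 3 and 4 were in the opposite order, with marker means of 5.48 and 5.23 and RASGRP1 at 4.19 and 4.59. PRKCB did not follow within SLC, where its lowest array was replicate 3. The part of these markers in the differences of RASGRP1 and PRKCB was not tested.

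The mean of 10 endothelial markers ranged from 6.36 to 7.07 in SLC and from 4.53 to 5.92 in LLC, with LLC replicate 3 lowest, the same array in which PRKCH (3.29) and RASGRP3 (3.57) were lowest. Both genes are known from endothelial cells, among others. The means of the fibroblast (6.36) and of the pericyte and smooth muscle markers (4.23) were also lowest in LLC replicate 3. The part of any of these lists in the differences of PRKCH and RASGRP3 was not tested. The mean of 12 macrophage markers ranged from 5.15 to 5.50 in SLC and from 3.08 to 3.58 in LLC. PLCG2, known from macrophages and B cells, was highest within LLC in replicates 3 and 4, where the macrophage markers were lowest. The mean of 6 SLC and theca markers was 5.08, 5.10, 5.74 and 5.93 in LLC replicates 1 to 4 and 6.08 to 6.37 in SLC, so within LLC it was higher in replicates 3 and 4, as were PLCG2 and PLCD1. Of its genes, INSL3, LHCGR and CYP17A1 were higher there, NR2F2 and GLI1 only in replicate 4, and PTCH1 was lower. CYP17A1, without a difference between cell types (-0.045), was at 4.74 and 4.59 in LLC replicates 3 and 4, above every SLC array. The part of either list in the higher SLC signals of PLCG2 and PLCD1 was not tested. Fibroblast markers (9 genes) ranged from 8.50 to 9.10 in SLC and from 6.36 to 7.67 in LLC, and pericyte and smooth muscle markers (9 genes) from 5.49 to 6.39 and from 4.23 to 5.26. Their part in the higher SLC signals of PLCD1, ATP2B4, ATP2C2, NFATC2 and PRKD2 was not tested. Lymphocyte markers, of interest because RASGRP1 and PRKCB are known from lymphocytes, had means from 1.75 to 1.89 in SLC and from 1.76 to 1.88 in LLC, below the background limit, and 9 of 12 were near background in both cell types.

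**Figure D3:**
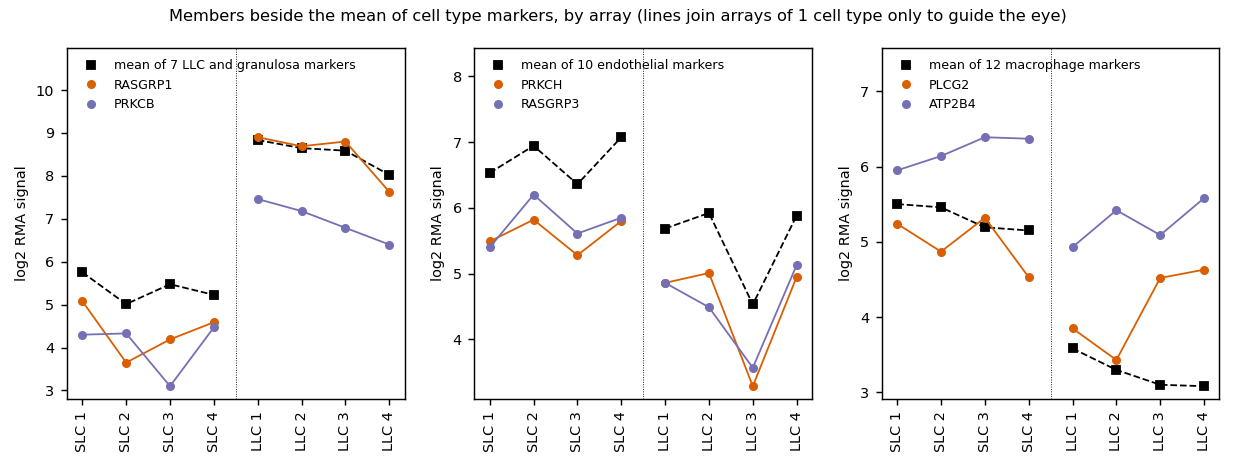
Log2 RMA signal (y axis) on each array (x axis) for RASGRP1 and PRKCB, PRKCH and RASGRP3, and PLCG2 and ATP2B4, each pair beside the mean of a marker list (black squares). PRKCH (3.29) and RASGRP3 (3.57) have their lowest signal in LLC replicate 3, where endothelial markers are lowest too. Fibroblast markers and pericyte and smooth muscle markers, not drawn, are also lowest in that array. Within LLC, macrophage markers are highest in replicate 1 (3.58) and lowest in replicate 4 (3.08), where ATP2B4 is lowest (4.93) and highest (5.58). The part of macrophage markers in the ATP2B4 difference was not tested.

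The pathway was followed upstream and downstream through lists of other genes, each read against the 11.1% of all symbols higher in LLC and 11.7% higher in SLC. Of 12 Gq-coupled receptors, PTGFR was higher in LLC (difference 3.92, SE 0.22) and 5 were higher in SLC. The latter were the thromboxane receptor TBXA2R (-0.90), the angiotensin receptor AGTR1 (-1.38), EDNRA (-1.31), EDNRB (-0.96) and the thrombin receptor F2R (-0.85). AGTR1 (3.46), EDNRA (2.01), EDNRB (3.09) and F2R (4.35) had their lowest signal in LLC replicate 3, as did the means of the endothelial (4.53), fibroblast (6.36) and pericyte and smooth muscle markers (4.23). TBXA2R was lowest in LLC replicate 1. The part of these markers was not tested. The count for SLC was 1 without SLC replicate 4, 2 without SLC replicate 2 or LLC replicate 1 and 3 without SLC replicate 3. The oxytocin receptor OXTR was near background. Of 4 Gq family alpha subunits, GNA15 was higher in SLC (2.71 in SLC, 2.26 in LLC, the latter near background). The count for SLC was 0 without SLC replicate 1 or 4 or LLC replicate 2 or 3, and 2 without SLC replicate 2. GNAQ was at 6.87 and 6.91 and GNA11 at 6.13 and 5.80, and neither passed.

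Of 14 genes of phosphoinositide supply, 0 were called by limma or without moderation, and 3 had an unadjusted p under 0.05. Without SLC replicate 3, 1 was called in each direction, and without LLC replicate 4, 1 was higher in SLC. Of 13 genes of inositol phosphate metabolism, the inositol kinase genes IPPK (1.12) and ITPKA (0.56) were higher in LLC and ITPKB (-0.87) higher in SLC. The count for LLC was 1 without SLC replicate 2, 3 or 4 or LLC replicate 2, 3 or 4, and the count for SLC was 0 without SLC replicate 1, 2 or 4 or LLC replicate 1 or 3. In store-operated calcium entry, STIM1, the calcium sensor of the endoplasmic reticulum, was higher in LLC by 1.18 (SE 0.16) and the channel gene TRPC1 by 0.68, while TRPC4 was higher in SLC (-1.28), among 9 genes. The count for LLC was 1 without SLC replicate 1, 3 or 4 or LLC replicate 1 or 2. Without LLC replicate 4 it was 3, with 2 for SLC.

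In mitochondrial calcium uptake, LLC exceeded SLC in 3 of 7 genes, and SLC exceeded LLC in 0. MICU3 and MICU2, which gate the mitochondrial calcium uniporter, differed by 1.57 (SE 0.21) and 1.23 (SE 0.20), and VDAC1, a channel of the outer membrane, by 1.01 (SE 0.12). The pore gene MCU had means of 4.80 in SLC and 4.91 in LLC (adjusted p = 0.747). The count stayed at 3 or 4 on leaving out any array.

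Of 9 exchangers and pump regulators, the sodium-calcium exchangers SLC8A1 (-0.66) and SLC24A3 (-0.67) were higher in SLC. Calcium-binding proteins were split. In the cytosol, CALB2 (4.95) and S100A10 (1.03) were higher in LLC, and S100A4 (-1.15, with LLC at 1.84, near background) and HPCAL1 (-0.68) higher in SLC, of 11 genes, where the count for SLC was 1 without SLC replicate 4. In the endoplasmic reticulum, the chaperone CANX (0.37) was higher in LLC and RCN1 (-1.10) higher in SLC, of 11, where the count for SLC was 2 without LLC replicate 4.

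Among 12 regulators of calcineurin and NFAT, LLC had the higher signal for 4 and SLC for 1. AKAP5, which anchors calcineurin, differed by 1.61 (SE 0.21, with SLC at 1.67, near background), RCAN3, an inhibitor of calcineurin, by 1.43 (SE 0.26), CHP1 by 0.81 and GSK3B, a kinase that returns NFAT to the cytosol, by 0.49. HOMER3 was higher in SLC (-0.53). Without LLC replicate 4 the counts were 5 and 4.

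The list of protein kinase C substrates, anchors, and related kinases and phosphatases held 14 measured genes, of which 4 had higher signals in LLC and 2 in SLC. The substrate MARCKS differed by -0.87 (SE 0.13) and its close relative MARCKSL1 by 0.87 (SE 0.20). RACK1, which anchors active protein kinase C and is also part of the ribosome, was higher in SLC (-0.87), and the scaffold AKAP12 higher in LLC (1.07), as were PDPK1, the priming kinase (0.41), and PHLPP2, a phosphatase of protein kinase C (0.42). The count for LLC was 2 without SLC replicate 1 or 4 or LLC replicate 1 or 2, and the count for SLC was 5 without LLC replicate 4. Among 7 other diacylglycerol-binding proteins, UNC13B, of vesicle priming, was higher in LLC (1.36, SE 0.24) and CHN1 higher in SLC (-0.75, SE 0.17).

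**Figure D4:**
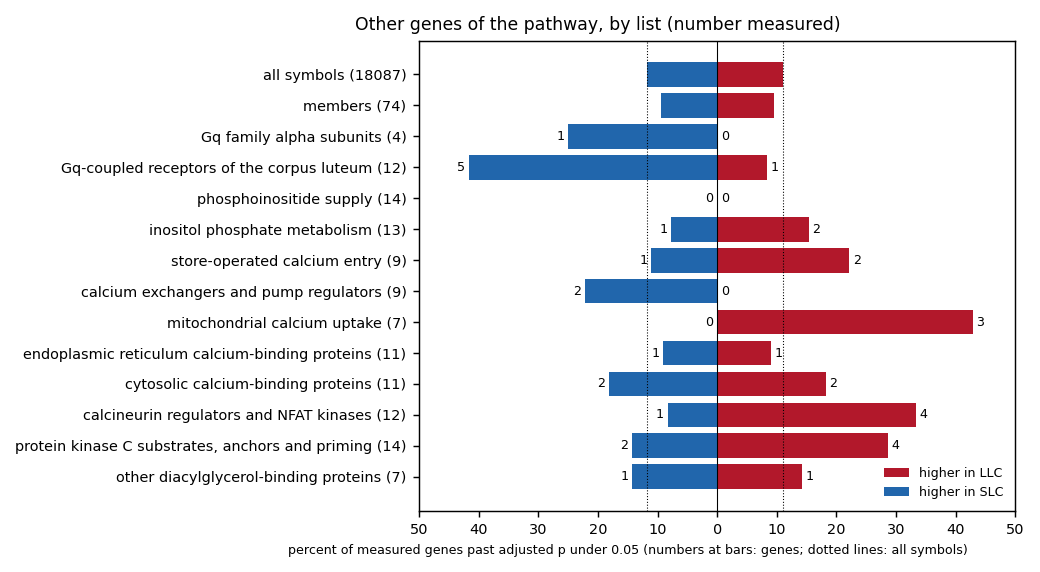
Percent of measured genes (x axis) past an adjusted p under 0.05, higher in LLC (red, right) or SLC (blue, left), for all symbols, the 74 genes and 12 lists of other pathway genes (y axis, number measured in brackets). Mitochondrial calcium uptake has 3 of 7 genes higher in LLC and 0 in SLC, and the 74 genes lie just below all symbols.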

How the data were processed

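The labels and methods give GeneChip Bovine Gene 1.0 ST arrays, processed by the authors with RMA in Transcriptome Analysis Console 4.0 (RMA version and settings not given in the sources used here). The deposited values are log2 signals, used without further normalization. Symbols were taken from GEO's platform annotation, in which 18550 of 24415 clusters carry 1 symbol, 595 several and 5270 none. For a symbol with more than 1 cluster, the cluster with the highest mean over all 8 arrays stood for it. Of the 74 genes, 73 were matched by gene number to RefSeq (ARS-UCD2.0), and 3 had a separate cluster, none of which went the other way past the test.

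The difference between LLC and SLC was fitted on all clusters by limma 3.58.1 (lmFit, eBayes; R 4.3.3), without a block, and p-values were Benjamini-Hochberg adjusted over all 24415. On simulated data of 24415 clusters, 18 of 50 clusters changed 1.5-fold, 30 of 50 changed 2-fold and 50 of 50 changed 4-fold were called. There were 7 false calls. Far fewer clusters were changed there than the 2353 higher in LLC and 2481 higher in SLC called here. The simulated noise was independent, with the same variance in both cell types. The adjusted p depends on the share of clusters changed, so these rates need not hold for the real arrays. Figures were drawn with matplotlib 3.10.9.

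The genes and lists were chosen with earlier results of these data known. Values of every array are given for genes past the adjusted p and a fold of 2 and for the gene of highest mean in each family. Arrays of the other genes past the test and of PRKCH were added after their values were seen. In the other lists, up to 3 genes of the largest moderated t were to be named, and further genes named there were chosen after their values were seen. Alternatives were other scalings, filters on dim signals, a replicate block, leaving out each array, other moderation, array weights, treat, the mean of a gene's clusters and another adjustment. A common background limit was added after the data were seen.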

Additional observations from a re-analysis of the deposited data

Results flagged for a closer look

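The 74 genes give 148 groups of 4 arrays, and in 10 of them a single array lay well away from the rest, a gap that about 1 in 20 groups shows by chance. In SLC replicate 3, PRKCB was at 3.10 against 4.30 to 4.47, PRKCD at 3.91 against 3.41 to 3.44, CAMK2N1 at 3.94 against 4.83 to 4.93, DGKB at 1.92 against 2.52 to 2.57 and PPP3R2 at 1.36 against 1.66 to 1.70, the last near background. In LLC replicate 3, PRKCH was at 3.29 against 4.86 to 5.01 and NFATC3 at 6.04 against 6.32 to 6.35. RASGRP1 was at 7.63 in LLC replicate 4 against 8.69 to 8.90. CAMK2G was at 4.94 in SLC replicate 2 against 4.58 to 4.61, and DGKQ at 3.84 in SLC replicate 1 against 3.73 to 3.74.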

How the results depend on the processing

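All 14 genes called kept their direction in every alternative, CAMK4 excepted, whose difference was 0 with signals held at a common limit. Leaving aside treat against a fold of 2, 7 of the 14 kept their call in every alternative: PLCB4, ITPR2, ATP2B4, PRKCB, PRKD1, PRKD2 and RASGRP1. With treat, 2 genes were higher in LLC (PRKCB and RASGRP1) and 0 in SLC, with or without the fold filter. With an unmoderated test the count higher in SLC was 2, and 0 with a fold above 2. That test also ended the call of NFATC2 (adjusted p = 0.0544). The study names an ANOVA and does not say whether it was moderated. Signals held at the background limit of each cell type gave 19 genes higher in LLC. In that setting 7204 clusters had no spread, and genes at the limit on every array differed by 0.08 by construction. ATP2A2 (0.175), DGKE (0.305) and ATP2B3 (0.309) were added as well, and these were not at the limit in both cell types. CAMK2D, CAMKK1 and RASGRP4 were added for SLC. Held at a common limit, 7371 clusters had no spread and 3 genes were higher in SLC, 0 of them with a fold above 2. Leaving out 1 array gave 5 to 7 genes higher in LLC and 4 to 10 higher in SLC, or 3 to 4 and 1 to 5 with a fold above 2. The median difference stayed between -0.06 and 0.03. The replicate block, with numbers that need not pair samples, gave 6 genes higher in LLC and 9 in SLC, with 3 and 3 past a fold of 2, and a median of -0.02. Deviations of same-numbered SLC and LLC samples correlated at -0.13, -0.07, 0.17 and 0.01 over clusters. Pairs of unlike number correlated at -0.20 to 0.25, highest for SLC replicate 4 with LLC replicate 2. Whether any samples share a cow was not tested. The cause of the other changes was not tested.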

Other observations

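Arrays of LLC had a larger SD than those of SLC for 45 of the 74 genes (60.8%), and for 66.8% of all symbols. The median SD of the 74 genes was 0.20 in SLC and 0.24 in LLC, against 0.15 and 0.20 over all symbols.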
